A study of Mus musculus with 4 samples.

Results

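The clustered histone genes are the members of the Hist1, Hist2, Hist3 and Hist4 gene clusters, which encode the replication-dependent H1, H2a, H2b, H3 and H4 proteins of chromatin. They were taken by symbol from the deposited transcript tables (every symbol that starts with Hist and a cluster number from 1 to 4), with the transcript row holding the most reads kept for each. This gave 76 of the 22730 gene symbols in the tables, of which 6 encode H1, 22 H2a, 21 H2b, 13 H3 and 14 H4. By cluster, 59 belong to Hist1, 13 to Hist2, 3 to Hist3 and 1 to Hist4, and 16 carry a _dup suffix that marks a symbol placed at several sites.

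RNA was sequenced from total thymocytes, the developing T cells of the thymus, of 2 wild-type (WT) mice and 2 mice labelled hnRNP L KO. Hnrnpl encodes hnRNP L, which binds CA-rich RNA and takes part in splicing. The labels name the same mixed background for both groups, of C57BL/6, an LckCre transgene, the Gt(ROSA)26Sor tdTomato and EGFP reporter, and CD45.1. The sources used here do not say which of the mice had Cre, which part of Hnrnpl was deleted, or how old the mice were. As background, the Lck promoter drives Cre in cells of the T lineage, so other cells of the thymus can keep Hnrnpl.

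Replication-dependent histone genes are transcribed mainly in S phase, when new chromatin needs histones. Their mRNAs are the only known animal mRNAs that as a rule lack a poly(A) tail: they end after a short stem-loop that SLBP binds, and the U7 snRNP directs cleavage downstream of it. Libraries made after removal of ribosomal RNA, as these were, keep such mRNAs, which selection for poly(A) would lose. Core histones form the nucleosome, and H1 binds the DNA between nucleosomes.

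The stem-loop was searched for in GENCODE transcripts of GRCm38 as 16 bases with 6 paired bases on each side of a 4-base loop. Letters were fixed too: GG at the start, CTTTT across stem and loop, and AG after the loop. Only 2 stem pairs and the last loop base could vary, so the letters common to the forms below were set by the search. A match was present in 49 of the 76 members. Some _dup symbols share a transcript, so this was 43 of 68 distinct transcripts. The lines below count members: the 14 H2a, 6 H3 and 8 H4 members there hold 10, 5 and 7 distinct transcripts. Only 57 of all 141767 transcripts held it, or 0.0402%, 46 of them from clustered histone symbols. The forms found are shown because they carry the element that sets these mRNAs apart, with the loop in capitals.
3 H1, 14 H2a, 7 H2b and 6 H3 members: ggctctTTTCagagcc
1 H1, 2 H2b and 3 H3 members: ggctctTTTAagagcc
1 H2a member: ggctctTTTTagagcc
8 H4 members: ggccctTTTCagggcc
2 H4 members: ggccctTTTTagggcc
Hist1h4j and Hist1h4b: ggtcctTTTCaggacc
The stem of the H4 members thus differed from that of the other types. Hist1h4j, which had the lowest fold change described later, has its stem-loop at chr13:21735437-21735452 on the plus strand of GRCm38. Of the 27 members without a match, 11 had a model that stops at the end of the coding sequence, so its absence there says nothing of the mRNA.

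Promoters were taken from RefSeq (GRCm38.p6), from 250 bases before to 50 bases after the start, and 70 members matched to 63 distinct promoters. CCAAT, on either strand, was present in 6 of 6 H1, 18 of 18 H2a, 17 of 17 H2b and 10 of 10 H3 promoters, but in 3 of 12 H4 promoters. Of all 32851 promoters in the table, 37.4% held it. TATAAA was present in 35 of the 63 against 13.6% of all promoters. The octamer ATTTGCAT was found in 7 of 18 H2a and 7 of 17 H2b promoters and in none of the other types, against 1.74% of all. AAACACA was present in 5 of 6 H1 promoters and 7.18% of all. These motifs do not overlap each other in the 4 promoters below, 1 each of an H1, H2b, H3 and H4 gene. Each is shown over the 150 bases before the start, with the matches in capitals (ATTGG is CCAAT on the other strand). Hist1h4d is 1 of the 3 H4 promoters with CCAAT, so it does not show the more common H4 case.
Hist1h1b, chr13:21780626-21780775, minus strand: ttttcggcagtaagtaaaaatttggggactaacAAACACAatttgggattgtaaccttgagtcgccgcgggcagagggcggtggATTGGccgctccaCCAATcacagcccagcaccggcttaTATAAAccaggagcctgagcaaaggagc
Hist1h2bg, chr13:23571250-23571399, plus strand: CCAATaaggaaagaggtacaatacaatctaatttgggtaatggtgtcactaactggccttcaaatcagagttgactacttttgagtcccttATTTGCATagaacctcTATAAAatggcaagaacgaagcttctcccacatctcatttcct
Hist1h3b, chr13:23752195-23752344, plus strand: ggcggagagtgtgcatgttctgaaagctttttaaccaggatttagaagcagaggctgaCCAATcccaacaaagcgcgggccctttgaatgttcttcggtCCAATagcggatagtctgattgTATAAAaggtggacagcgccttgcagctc
Hist1h4d, chr13:23581418-23581567, plus strand: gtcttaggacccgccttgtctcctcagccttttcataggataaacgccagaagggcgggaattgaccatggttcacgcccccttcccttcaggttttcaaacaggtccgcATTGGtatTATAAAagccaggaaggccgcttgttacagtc
A match is a run of letters, and binding at these promoters was not measured in this study.

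The libraries held between 27548708 and 51544714 reads assigned to 1 transcript per symbol, with the WT libraries deeper than the KO libraries. Hnrnpl, the targeted gene, stood at 854 and 813 CPM (reads scaled by library size and edgeR's TMM factor) in the WT libraries and at 467 and 208 in the KO libraries, replicate 1 first as in every such list here. Its log2 fold change, KO over WT, was -1.30 (SE 0.42, edgeR adjusted p = 0.486), and -2.01 without KO replicate 1 (edgeR adjusted p = 0.0041). Where 1 library is left out, here and in all later cases, 1 group is a single library, which is assumed to vary like the pair of the other group, so such a p is weak evidence. WT replicate 1 stood apart in small RNA genes and their hosts, which took 8.22% of its gene reads against 1.13% to 2.14% in the other libraries. KO replicate 1 held 4116 reads of the Y-linked Ddx3y and 222 of Xist, while the other 3 libraries held 1 to 17 and 57852 to 87390, so the KO mice differed in this respect. The summed CPM of 12 thymocyte markers was 21212 and 21549 in WT and 21795 and 18094 in KO. Of these 12, Rag2 and Cd3e were higher in KO at an unadjusted edgeR p under 0.05, with log2 fold changes of 0.65 and 0.97, and 0 were lower. Sums for 6 B cell markers (34.3 to 40.8) and 7 myeloid markers (204 to 222) lay within these narrow ranges, but single genes differed. Of the 7 myeloid genes, Csf1r, Emr1 and Cd68 were higher in KO at an unadjusted edgeR p under 0.05, with log2 fold changes of 0.58, 0.42 and 0.74, and S100a9 was lower at -0.38. No marker of these lists was at 0 in all libraries. Erythroid markers were high in KO replicate 1 (460 against 93.7 to 146), and stromal markers were highest in KO replicate 2 (272 against 229 to 244). In these 2 lists, erythroid Slc4a1 and stromal Epcam were higher in KO at an unadjusted edgeR p under 0.05, and 0 genes were lower. Their log2 fold changes were 0.93 and 0.82, and for each both KO libraries were above both WT libraries. Most of the stromal sum was Pecam1, and 8 of the 9 stromal genes were higher in KO replicate 2 than in KO replicate 1, by a median 2.24-fold over the 9. The part of these other cell types in the results was not tested.

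Thymocyte RNA was rich in these mRNAs. Hist2h2bb (H2b, chr3:96073623-96074115, mm9, as for all gene positions from here) had the highest mean deposited RPKM, 1497, of 21818 symbols ranked without small RNA genes and their hosts. RPKM is reads scaled by transcript length and mapped reads, and it was used to compare genes with each other. The linker histone genes Hist1h1a (1107 RPKM) and Hist1h1b (837) ranked 3 and 4, and 21 members were among the 100 highest genes. The 5 members with the most reads, Hist1h1a, Hist2h2bb, Hist1h1b, Hist1h1d and Hist1h1c, held 46.1% of all clustered histone reads. Levels spanned a wide range, since 24 members were over 100 RPKM and 15 under 1 RPKM.

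Low members fell into a few kinds. Of the 76, 65 passed the filter on low counts and 11 did not, all with _dup symbols and none with more than 18 reads in a library. Hist2h2aa2_dup1 had no read, which allows up to 3 reads per library. Its twin site Hist2h2aa2_dup2 stood at 89.8 RPKM, and the Hist1h2ao and Hist1h2ap symbols showed the same pattern, with 63.0 and 43.7 RPKM at the site marked dup1 and 0.0856 and 0.0228 at the site marked dup2. Copies of these symbols are alike in sequence, so how reads were divided between them is uncertain. Hist1h1t, Hist1h2aa and Hist1h2ba, known as testis histones, were low, at 1.30, 0.717 and 0.272 RPKM.

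Near-identical copies limit what single members show. In all, 18 members lie in 9 pairs with overlapping spans, such as Hist2h2aa1_dup2 and Hist2h2aa2_dup2 with 13241 and 13237 reads, which are mostly the same reads. Not every pair is like this. Hist1h4n_dup1 lies within the span of Hist1h4m, yet it held 7, 18, 1 and 0 reads against 2601, 1586, 805 and 517. Alignments of mapping quality under 10 were not counted, and the part of this in such low counts was not tested. No member overlaps a row of a gene outside the clusters. Of the 65 tested members, 7 shared more than 90% of their 50-base windows with other transcripts and 4 shared none, among them Hist1h1a and Hist1h1b. Windows were taken over the whole GENCODE transcript, which can differ in length from the counted span.

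**Figure D1:**
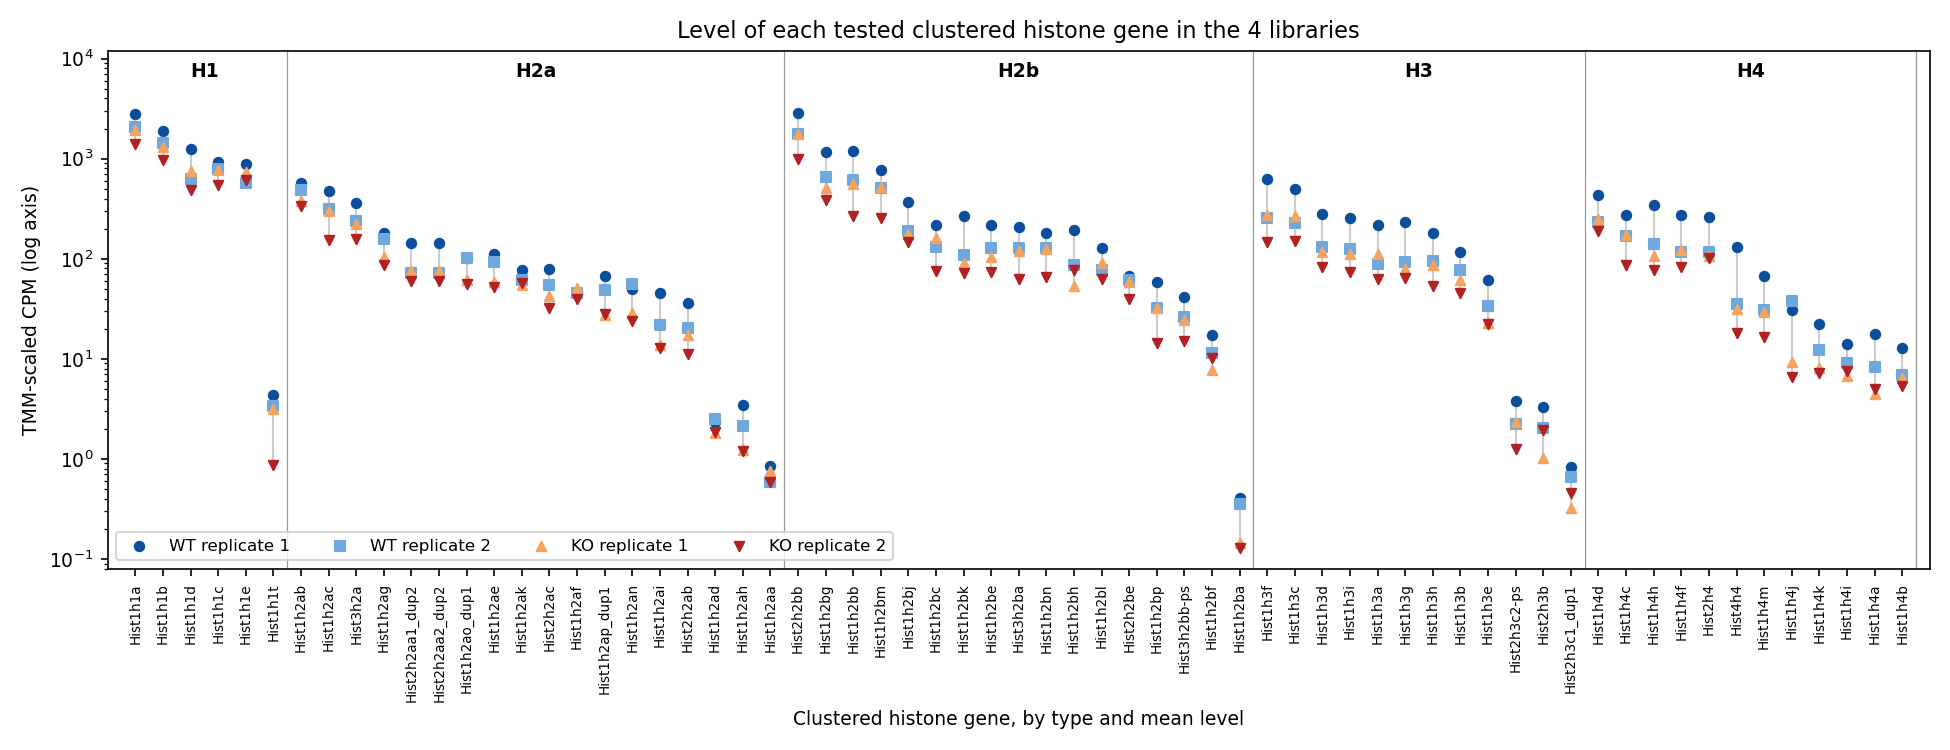
TMM-scaled CPM (log axis) of the 65 tested clustered histone genes in each library, by type and then by mean level. WT replicate 1 is above WT replicate 2 for 61 genes and KO replicate 2 below KO replicate 1 for 56, and Hist1h4j is the H4 gene at 30.7 and 38.2 CPM in WT and 9.34 and 6.65 in KO.

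The comparison of KO with WT asked whether the mRNA of these genes differed in thymocytes of the KO mice. Clustered histone genes took 2.11% and 1.39% of gene reads in the WT libraries, and 1.35% and 0.985% in the KO libraries. Counting error was small beside these gaps, with exact 95% Clopper-Pearson intervals of 1.38% to 1.39% for WT replicate 2 and 1.34% to 1.35% for KO replicate 1. The mean share was 1.75% ± 0.508 (SD, n = 2) in WT and 1.17% ± 0.256 (SD, n = 2) in KO, a KO to WT ratio of 0.667. Both KO libraries were below both WT libraries, but WT replicate 2 and KO replicate 1 were close, and the WT libraries differed from each other by more than that gap. With 2 libraries a group, the smallest two-sided p of an exact permutation test is 0.333. Fewer cells in S phase and less histone mRNA per cell cannot be told apart in bulk RNA.

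**Figure D2:**
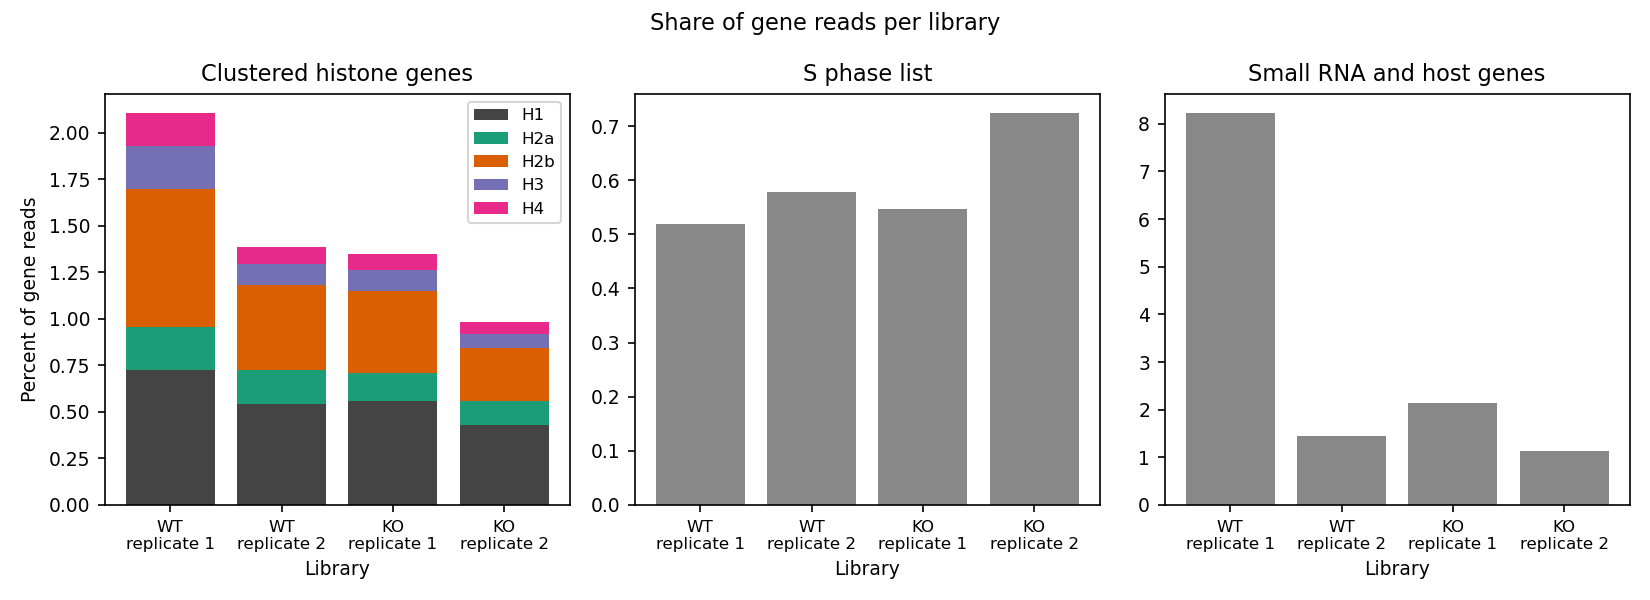
Percent of gene reads per library taken by the clustered histone genes (stacked by type), by the list of S phase genes and by small RNA and host genes, each on its own axis from 0. The histone share was 2.11% in WT replicate 1 and 0.985% in KO replicate 2, the library in which the S phase list was highest.

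No member passed the test across all genes. edgeR's quasi-likelihood test called 0 of the 65 tested members at an adjusted p under 0.05, and 0.0% of the 13733 genes tested were called lower in KO and 0.00728% higher. At an unadjusted p under 0.05, 24 members were lower in KO, against 3.61% of all genes. Of the 65 members, 65 had a negative log2 fold change, against 48.9% of all genes, and in 48 both KO libraries were below both WT libraries, against 21.4% of all genes. Both counts include Hist1h2ba, which passed the filter on low counts through its WT libraries alone, so its place in them was set by the filter. The median log2 fold change was -0.83 for the members and 0.01 for all genes. These counts describe genes that share libraries and in part reads, and the p-values measure the spread between the sampled mice, 1 library each.

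The number of members called varied with the setting, and all calls were lower in KO. DESeq2 called 14, against 0.301% of all genes, edgeR without the filter on low counts 6, against 0.0912%, and edgeR with small RNA genes left out 1, Hist1h4j, against 0.00741%. With WT replicate 2 left out 7 members passed, against 0.279% of all genes, without KO replicate 1 it was 8, against 1.57%, without KO replicate 2 it was 1, against 0.0141%, and without WT replicate 1 it was 0, against 0.00715%. It was also 0 with limma-voom, upper-quartile or RLE scaling, no robust moderation, rows summed, the length trend removed or overlapping members left out, settings in which 0.0% of all genes were called lower.

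Much of this lay in single libraries. CPM was higher in WT replicate 1 than in WT replicate 2 for 61 of 65 members, against 50.1% of all genes, with a median ratio of 1.64. KO replicate 1 was below WT replicate 2 in 48 of 65 members, against 49.7% of all genes, with a median ratio of 0.912. KO replicate 2 was below WT replicate 2 in 64 of 65, against 49.2%, with a median ratio of 0.594, and below KO replicate 1 in 56 of 65, against 50.9%. The members' median log2 fold change was -0.42 when WT replicate 1 was left out and -1.12 when WT replicate 2 was. Leaving out KO replicate 1 or KO replicate 2 gave -1.19 and -0.66. WT replicate 1 is the library in which small RNA genes and their hosts were high, at a median 5.97-fold of WT replicate 2 over 174 such genes. Other transcripts of at most 500 nt, small RNAs aside, had a median WT replicate 1 to WT replicate 2 ratio of 1.09. The part of fragment or RNA size in the result was not tested.

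**Figure D3:**
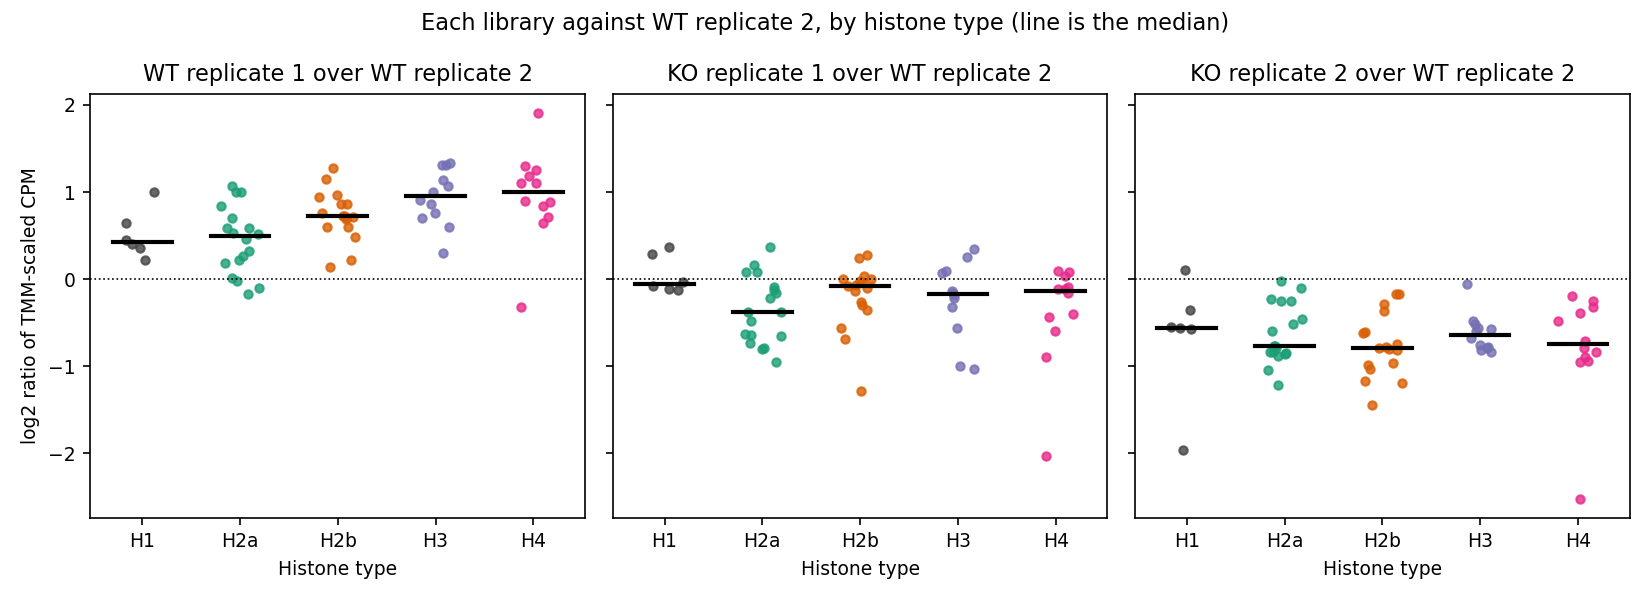
log2 ratio of TMM-scaled CPM of each tested member in WT replicate 1, KO replicate 1 and KO replicate 2 over WT replicate 2, by histone type, with the median as a line. In WT replicate 1 the medians increased from H1 (1.34-fold) to H4 (2.00-fold), and in KO replicate 2 all 5 medians lay below 0 on this scale.

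Linker histone genes, which encode H1, had the smallest median log2 fold change of the 5 types, -0.54 over 6 members. In 4 of 6 both KO libraries were below both WT libraries, against 21.4% of all genes. Hist1h1a (chr13:23855537-23856283) stood at 2817 and 2056 CPM in WT and 1953 and 1394 in KO. The KO libraries were the lower ones, by less than the WT libraries differed in the case of KO replicate 1, and the log2 fold change was -0.54 (SE 0.22, edgeR adjusted p = 0.498). Hist1h1b (chr13:21871752-21872423) stood at 1888 and 1433 CPM in WT and 1311 and 960 in KO, again without overlap, with a log2 fold change of -0.55. Hist1h1c, with 925 and 796 CPM in WT and 780 and 542 in KO, had a log2 fold change of -0.38. Hist1h1e was at 895, 573, 743 and 614 CPM, so that its groups overlapped, and its log2 fold change was -0.11. The testis gene Hist1h1t had the lowest value of the type, -0.96, from 4.37, 3.41, 3.15 and 0.872 CPM. As a share of all clustered histone reads, H1 made up 34.4% and 39.1% in WT and 41.3% and 43.9% in KO, the one type whose share was higher in both KO libraries than in both WT libraries.

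H2a genes had a median log2 fold change of -0.80 over 18 tested members. In 14 of them both KO libraries were below both WT libraries, against 21.4% of all genes. The H2a genes included 7 of the 10 members with the smallest p. Hist1h2an (chr13:21878695-21879087) stood at 49.5 and 55.9 CPM in WT and 28.9 and 24.0 in KO. Here WT replicate 2 was the higher WT library, and the log2 fold change was -0.99 (SE 0.14, edgeR adjusted p = 0.240). Hist1h2ao_dup1, at 101 and 103 CPM in WT and 61.7 and 55.7 in KO, had a log2 fold change of -0.79 (SE 0.11, edgeR adjusted p = 0.240), and Hist1h2ap_dup1, whose span lies within it, one of -1.05. Hist1h2ae had 111 and 92.3 CPM in WT and 59.2 and 51.7 in KO, a log2 fold change of -0.88. In Hist1h2ag the values were 180, 159, 103 and 87.7 CPM, a log2 fold change of -0.83. In Hist1h2an, Hist1h2ao_dup1, Hist1h2ae and Hist1h2ag the WT libraries lay closer to each other than to either KO library, as a choice by smallest p favours.

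The H2a gene with the highest RPKM, Hist1h2ab (352), had 566 and 487 CPM in WT and 374 and 341 in KO, a log2 fold change of -0.56 (SE 0.14, edgeR adjusted p = 0.414). The lowest fold change of the type was that of Hist1h2ai, -1.34, with 45.7 CPM in WT replicate 1 and 12.8 to 21.7 in the other 3 libraries. Hist1h2af differed from the rest: at 46.4 and 46.0 CPM in WT and 51.4 and 39.3 in KO its groups overlapped, and its log2 fold change was -0.03 (SE 0.15), the value nearest 0 of all 65. With upper-quartile scaling it was 0.020. KO replicate 1 stood at a median 0.770 of WT replicate 2 over the H2a genes, and at 0.888 to 0.965 over the other types.

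H2b genes had a median log2 fold change of -0.78 over 17 tested members. In 13 of them both KO libraries were below both WT libraries, against 21.4% of all genes. Hist2h2bb, the highest of all, had 2857 and 1747 CPM in WT and 1748 and 1004 in KO. WT replicate 2 and KO replicate 1 were level, and the log2 fold change was -0.74 (SE 0.35, edgeR adjusted p = 0.529). Hist1h2bb (560 RPKM) had 1189 and 609 CPM in WT and 556 and 267 in KO, a log2 fold change of -1.13 with an SE of 0.57. In Hist1h2bm (544 RPKM), at 773, 510, 523 and 257 CPM, the log2 fold change was -0.72. In all 3 genes the replicates of each group lay further apart than WT replicate 2 and KO replicate 1. Hist2h2be, which as background is also known to yield a polyadenylated mRNA, had 67.2 and 60.9 CPM in WT and 59.3 and 39.6 in KO, the smallest change of the type at -0.37. The lowest value was that of Hist1h2ba, -1.45, from 0.411, 0.353, 0.145 and 0.129 CPM. Hist1h2ba was the 1 member that passed the filter through its WT libraries alone.

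H3 genes had a median log2 fold change of -0.95 over 12 tested members. In 8 of them both KO libraries were below both WT libraries, against 21.4% of all genes. WT replicate 1 was higher than WT replicate 2 in all 12, by a median 1.94-fold. Hist1h3c (239 RPKM) had 499 and 227 CPM in WT and 270 and 150 in KO, so that KO replicate 1 was above WT replicate 2, and a log2 fold change of -0.79 (SE 0.59). Hist1h3f had 634 and 255 CPM in WT and 271 and 148 in KO, the same order, with -1.09. In Hist1h3g and Hist1h3d the groups did not overlap: the former had 233, 92.6, 79.8 and 64.5 CPM and -1.17, the lowest of the type, and the latter 278, 132, 117 and 82.5 CPM and -1.04. The SEs of these 4 genes ran from 0.47 to 0.68. Among the Hist2 members, Hist2h3b, Hist2h3c1_dup1 and Hist2h3c2-ps were all under 4 CPM in every library, with log2 fold changes of -0.83, -0.92 and -0.74.

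H4 genes had the lowest median log2 fold change, -1.01 over 12 tested members. In 9 of them both KO libraries were below both WT libraries, against 21.4% of all genes. Hist1h4j (chr13:21826965-21827276) had the lowest fold change and the smallest p of all members. It stood at 30.7 and 38.2 CPM in WT and 9.34 and 6.65 in KO, with the groups far apart and WT replicate 2 the higher WT library. Its log2 fold change was -2.11 (SE 0.21), and edgeR's adjusted p of 0.076 missed the threshold. It passed with 1 library left out in 3 of 4 cases, with edgeR adjusted p from 0.0105 to 0.0408, and had a log2 fold change of -2.25 (edgeR adjusted p = 0.0951) without WT replicate 1. With small RNA genes left out it passed too (edgeR adjusted p = 0.0308). Among the 12 tested H4 members it alone had a lower CPM in WT replicate 1 than in WT replicate 2. Of the 50-base windows of its GENCODE transcript of 774 bases, 24.6% were shared with transcripts of other genes. Its reads were counted over the 312 coding bases alone, for which the shared part was not worked out.

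Hist4h4 (chr6:136752589-136752900), the only gene of its cluster, was the opposite case. At 132 CPM in WT replicate 1 and 35.1, 31.4 and 18.3 in WT replicate 2 and the KO libraries, its log2 fold change of -1.75 (SE 0.98, edgeR adjusted p = 0.616) rested on 1 library, and without WT replicate 1 it was -0.50. Hist1h4a had 17.8 and 8.25 CPM in WT and 4.45 and 5.04 in KO, a log2 fold change of -1.45 (SE 0.37, edgeR adjusted p = 0.414). Hist1h4k had 22.2 and 12.4 CPM in WT and 8.18 and 7.17 in KO, with -1.17. The H4 genes with the highest RPKM overlapped between groups: Hist1h4d (356 RPKM) had 435, 234, 249 and 188 CPM, Hist1h4c 275, 168, 172 and 86.7, and Hist1h4f 276, 116, 122 and 83.0. Their log2 fold changes were -0.62, -0.78 and -0.93.

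**Figure D4:**
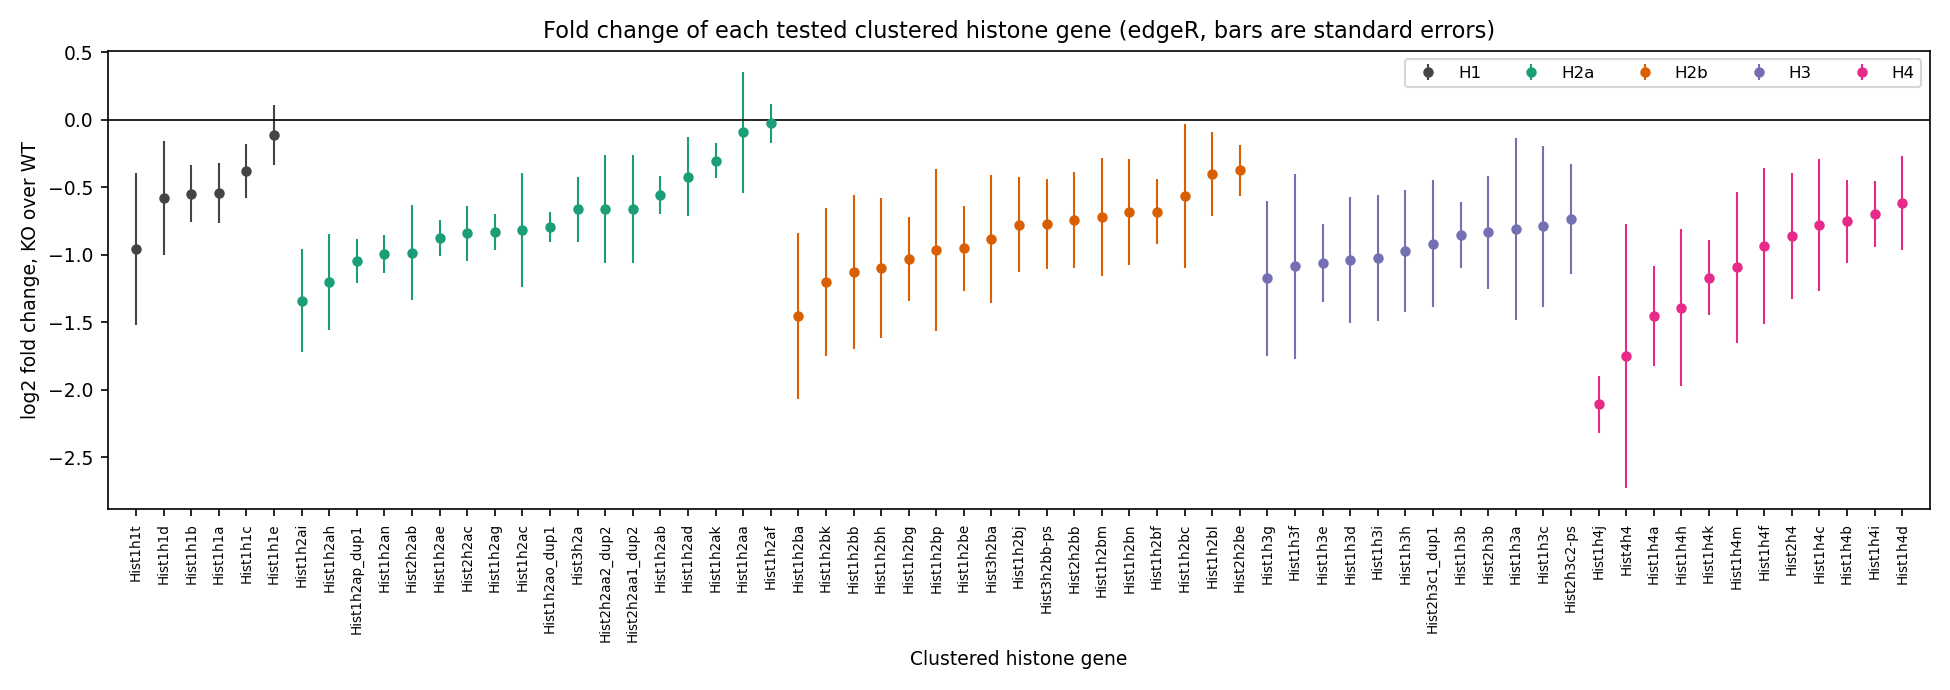
edgeR log2 fold change (KO over WT) of the 65 tested members with standard errors, by type and then by value. All points lie below 0, from -2.11 (Hist1h4j) to -0.03 (Hist1h2af).

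The members were also compared by position, length and sequence. The median log2 fold change was -0.85 over 51 Hist1 members, -0.79 over 10 Hist2 members and -0.77 over the 3 Hist3 members. Of the Hist3 members, Hist3h2a had 361, 241, 221 and 159 CPM and -0.66, Hist3h2ba 210, 127, 120 and 62.2 CPM and -0.88, and Hist3h2bb-ps, named as a pseudogene, 41.8, 25.9, 24.7 and 15.0 CPM and -0.77. The other Hist2 members were Hist2h2ac (-0.84), Hist2h2ab (-0.98), Hist2h2aa1_dup2 (-0.66), Hist2h2aa2_dup2 (-0.66) and Hist2h4 (-0.86). Within Hist1 on chromosome 13, both KO libraries were below both WT libraries in 18 of 20 tested members of the block nearer the chromosome's start. In the second block this held for 20 of 31, against 21.4% of all genes. The medians of these blocks were -0.97 and -0.82, and the difference was not tested.

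Counted length ranged from 312 nt in most H4 genes to 2977 nt in Hist1h1d. In 36 of the 76 members the counted length is the coding length, so reads of their untranslated regions were not counted for them. The median log2 fold change was -0.85 for the 32 tested members counted over the coding length, -0.86 for 23 longer ones of up to 900 nt and -0.70 for the 10 above 900 nt. Other genes of at most 500 nt had a median of -0.16 over 99 genes, and those above 4000 nt one of 0.05. With a length trend removed, the members' median was -0.66. Across the 65 members, Spearman's rho with the log2 fold change was 0.28 for length, -0.010 for GC content and -0.16 for shared windows, as a description of genes that share libraries and clusters. Members whose GENCODE model matched the stem-loop search (42 tested) and those without a match (23) had medians of -0.84 and -0.83. This split does not separate mRNAs with and without a stem-loop. The search fixed letters, and of all 27 members without a match, 11 had a model that stops at the coding end.

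Many H2a and H2b genes lie head to head, with a shared promoter region between them. There were 11 such pairs, with 172 to 334 bases between the counted spans. For members counted over the coding length alone, this distance takes in untranslated bases, so it is not the size of the promoter region. The H2b gene had the higher RPKM in 7 pairs. WT replicate 1 exceeded WT replicate 2 by a larger ratio in the H2b gene of 8 pairs, and KO replicate 2 was lower against KO replicate 1 in the H2b gene of 9. Hist1h2ae and Hist1h2bg, 179 bases apart, show this: their WT replicate ratios were 1.20 and 1.82, although their log2 fold changes were -0.88 and -1.03. Hist1h2an and Hist1h2bp, 269 bases apart, had WT replicate ratios of 0.886 and 1.81 and log2 fold changes of -0.99 and -0.96. The pairs were chosen for the text after their values were seen.

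Although histone genes mostly lack introns, 6 known junctions in 5 members had reads, and no putative one did. Hist1h2bc, chosen after its values were seen, had the most. Its junction (chr13:23776490-23784045) was read 50 and 90 times in the WT libraries and 47 and 69 times in the KO libraries. As TMM-scaled CPM these were 1.28 and 1.76 in WT and 1.70 and 2.23 in KO. Exact 95% Poisson intervals ran from 0.953 to 1.69 and from 1.42 to 2.17 in WT, and from 1.25 to 2.26 and from 1.73 to 2.82 in KO. Gene reads ran the other way, at 216, 132, 160 and 75.3 CPM. Set against the gene's reads, junction reads were 0.593%, 1.34%, 1.06% and 2.96%. These are ratios and not parts, since junction reads and gene reads were counted separately. In Hist1h2bq_dup1, with very few reads, the ratio was 200% in both KO libraries. After scaling, the library with the most reads of the gene had the fewest spliced ones, and the reverse. Only the intervals of these extreme libraries, WT replicate 1 and KO replicate 2, did not overlap. A junction of Hist1h2bp had 12, 15, 5 and 4 reads, too few to order the libraries.

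**Figure D5:**
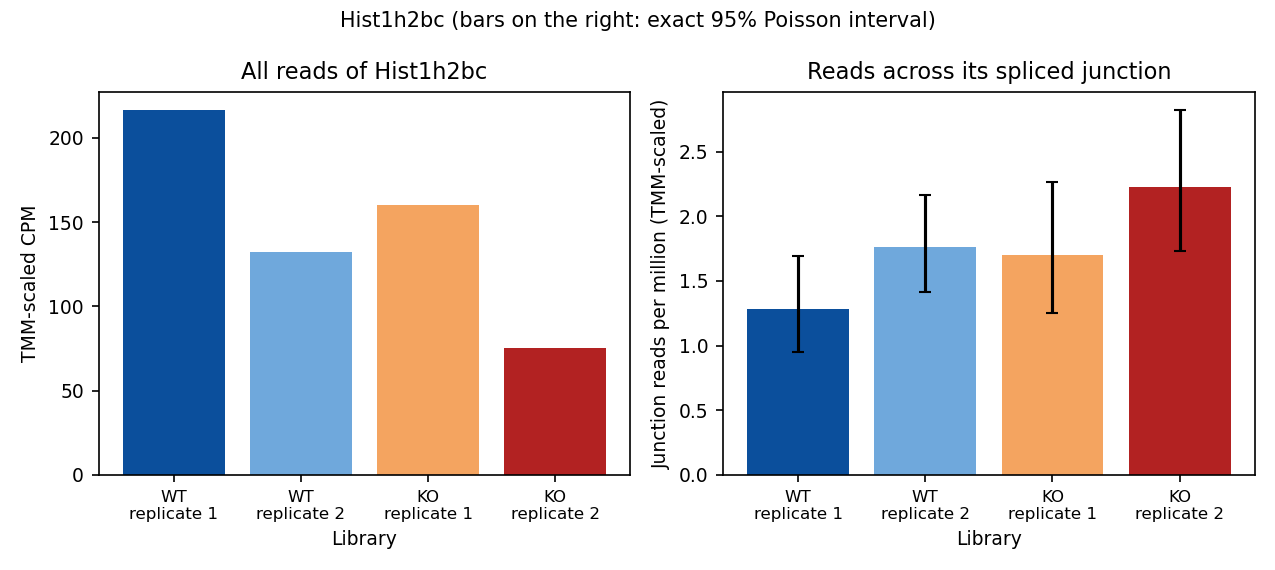
All reads of Hist1h2bc in TMM-scaled CPM (left) and reads across its spliced junction on the same scale (right, with exact 95% Poisson intervals) in each library. KO replicate 2 is lowest on the left at 75.3 and highest on the right at 2.23, and WT replicate 1 is the reverse.

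Genes that act on histone mRNA had fold changes nearer 0. Of 16 genes for histone mRNA transcription and processing, 0 passed edgeR's test, 6 had positive and 10 negative fold changes, and the median log2 fold change was -0.04. Slbp, the stem-loop binding protein, had 120 and 129 CPM in WT and 120 and 155 in KO, a log2 fold change of 0.14 (SE 0.15). The U7 snRNP protein gene Lsm11 had 49.4 and 56.9 CPM in WT and 41.8 and 39.1 in KO, with -0.39 (SE 0.12, edgeR adjusted p = 0.452). Rnu7, the U7 RNA itself, had 14.6, 10.2, 8.76 and 9.27 CPM and -0.45, and Sympk, a scaffold of the cleavage complex, -0.23. Of 9 decay genes 0 passed, 4 were positive and 5 negative, with a median of -0.04. The values were -0.40 for Lsm1, of the ring that binds the 3′ end of mRNAs under decay, 0.24 for Exosc10, an exosome nuclease, and 0.20 for the helicase gene Upf1. Of 14 histone chaperone genes 0 passed, 6 were positive and 8 negative, with a median of -0.06, and -0.16 was the lowest value. Chaf1a, Supt16h and Nap1l1 had log2 fold changes of 0.30, 0.32 and 0.33.

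Histone variant genes outside the clusters, which mostly give polyadenylated mRNAs, had a median log2 fold change of -0.16 over 11 genes, with 0 passing, 1 positive and 10 negative. H2afx, whose transcript holds the stem-loop, had 457 and 358 CPM in WT and 300 and 303 in KO, a log2 fold change of -0.43 (SE 0.15, edgeR adjusted p = 0.470). H2afv had 238 and 189 CPM in WT and 162 and 125 in KO, with -0.57, and the linker variant gene H1f0 had -0.25.

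S phase genes were set beside the histone genes because both are expressed at that stage. Of 32 tested, 0 passed, 22 were positive and 10 negative, and the median log2 fold change was 0.09. The values were 0.44 for Pole, of the leading-strand polymerase, 0.33 for Mcm4, of the replicative helicase, and -0.46 for Rfc2, of the clamp loader. In KO replicate 2, the library with the lowest histone share, 30 of these 32 genes were above KO replicate 1, against 49.1% of all genes, as were all 16 tested mitosis genes. Clustered histone reads were 4.05 and 2.40 times the reads of the S phase list in the WT libraries, and 2.46 and 1.36 times in the KO libraries. Again WT replicate 2 and KO replicate 1 were alike. Of 16 mitosis genes 0 passed, 9 were positive and 7 negative, with a median of 0.04, and Cdk1, Mki67 and Top2a had log2 fold changes of -0.16, 0.26 and 0.20. At an unadjusted edgeR p under 0.05, the genes lower in KO numbered 1 in the processing list, 1 in the decay list, 2 among the variants, 1 in the S phase list and 0 among chaperones and mitosis genes, and 0 genes of these lists were higher. Of all genes tested, 3.61% were lower and 6.29% higher at this threshold.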

How the data were processed

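RNA-seq libraries of thymocytes from 2 WT and 2 KO mice were analysed, 1 per mouse. The authors deposited, per library, raw read counts per RefSeq transcript, with the coverage signal (reads per nucleotide) and RPKM values. Per the file headers, secondary alignments and those of mapping quality under 10 were not counted. Deposited RPKM matched the counts to within 0.00494%. RiboMinus depletion, RNase III cutting and size selection came first, per the labels' protocols. The build is mm9 per the submitters' processing notes; no aligner or strand setting is given in the sources used here. Deposited junction tables hold raw read counts.

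The transcript row with the most reads was kept per symbol. Mapped reads were 99782558 and 122619310 in WT and 69061265 and 75485061 in KO; intervals cover counting error only. edgeR 4.0.16 in R 4.3.3 (robust quasi-likelihood, TMM, its filter on low counts, Benjamini-Hochberg over all 13733 genes, threshold 0.05) was checked on simulated data. Alternatives were DESeq2 1.42.0, limma-voom 3.58.1, other scalings, no filter, no robust moderation, a replicate block, small RNA genes left out, transcript rows summed, a length trend removed and each library left out. Leaving out overlapping members was added after seeing the data. Members, lists and tests were chosen with earlier results of these data known. Genes named were Hnrnpl and Slbp, for each type the 3 highest by RPKM and the lowest and highest fold change, the 10 smallest p, all tested Hist2, Hist3 and Hist4 members, and the 3 smallest p of each list; other names were chosen after their values were seen. Stem-loops came from GENCODE M21 (GRCm38) and promoters from RefSeq, with 76 and 70 members matched.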

Additional observations from a re-analysis of the deposited data

How the results depend on the processing

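The negative direction of the members' median held under every alternative run, from -0.42 without WT replicate 1 to -1.19 without KO replicate 1, and the ratio of histone shares was 0.553 to 0.840 with 1 library left out. The count of genes called was 1, but 103 with DESeq2 (62 higher, 41 lower), 62 without the filter (44 higher, 18 lower), 121 with the replicate block (52 higher, 69 lower), 3 without small RNA genes, 0 with limma-voom, with upper-quartile scaling, without robust moderation and with rows summed, and 2 to 427 with 1 library left out (427 without KO replicate 1). Members called, all lower, were 0, but 14 with DESeq2 (background 0.301%), 6 without the filter (0.0912%), 25 with the replicate block (0.502%), 1 without small RNA genes (Hist1h4j), and 0 to 8 with 1 library left out (8 without KO replicate 1, 7 without WT replicate 2). The cause was not tested. The Hnrnpl value was -2.01 without KO replicate 1, the lowest of a range up to -0.84. Members with a negative value numbered 64 of 65 with upper-quartile scaling, 63 of 65 with the length trend removed, 62 of 66 without WT replicate 1, 63 of 66 without KO replicate 2, and 73 of 75 both with DESeq2 and without the filter. Among the genes named, signs changed for Hist1h2af (0.020 with upper-quartile scaling, 0.15 with the length trend removed, and -0.24 to 0.15 with 1 library left out), Hist1h1e (-0.40 to 0.25), Top2a (-0.026 to 0.40) and Slbp (-0.060 to 0.31), each of these last ranges with 1 library left out: the signs turned without KO replicate 2, and for Hist1h1e also without WT replicate 1, where it was 0.25 (0.017 without KO replicate 2). Each fit with 1 library left out has a group of 1, assumed to vary like the other. The labels tie same-numbered libraries by a number alone: over the 2 pairs the correlation of their deviations was 0.259 over all genes and 0.145 over members, and which libraries shared a slide is not given, so slide may be mixed with group.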
